A study of Homo sapiens with 9 samples.

Results

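The genes described here encode subunits of the ATP-dependent chromatin remodelling complexes of human cells. They were 47 genes, chosen by name from the SWI/SNF, ISWI, CHD and INO80 families, out of 19775 genes that had at least 1 probe set annotated to a single symbol. Each was represented by its probe set of highest mean signal over the 9 arrays, so the choice did not use the differences between groups. By family there were 19 SWI/SNF, 6 ISWI, 15 CHD and NuRD and 5 INO80 genes, with HELLS and ATRX as 2 further ATPases of the SNF2 type. All 47 passed the filter on dim probe sets, as did 12036 genes in all.

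Total RNA of HEK293 cells, a line derived from human embryonic kidney, was measured in 3 groups of 3 arrays. In the overexpression group the cells had been transfected with a plasmid that encodes MOF, in the knockdown group MOF had been depleted with small interfering RNA, and the wild type cells were untreated. MOF is the product of KAT8, an acetyltransferase of histone H4, and the comparisons ask which transcripts differ when its level is raised or lowered. The design text mentions cells given an EGFP double-stranded RNA as control, but none are among the 9 arrays. In the comparisons with wild type the transfection and the change in MOF therefore cannot be told apart. Between knockdown and overexpression the reagent, small interfering RNA or plasmid, differs along with MOF. Reagent and MOF level cannot be told apart there either. Whether the replicates are separate cultures is not stated in the labels, so the p-values rest on a spread between samples that could be technical. In such bulk RNA, fewer cells of a type and less RNA per cell cannot be told apart.

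KAT8 was read first, as a check of the labels. Its signal was 4594, 4727 and 4763 in the overexpression arrays, 432, 706 and 517 in the knockdown arrays, and 2910, 3797 and 3249 in the wild type arrays. The 3 groups did not overlap. KAT8 fell by 2.61 log2 units in knockdown against wild type (SE 0.17, adjusted p = 4.72e-05 by limma), whereas the overexpression difference of 0.51 (SE 0.17) did not pass the test (adjusted p = 0.259).

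All 8 genes that HEK293 cells are known to express reached the filter. Of the markers of blood, liver and muscle that were measured, 5 stayed below it. The blood marker HBB reached it, with a median signal of 248.5 (56.7 to 381) against about 188 at the filter. The ratio of 3′ to 5′ signal of ACTB, a sign of RNA quality, ran from 1.18 to 1.38 with overexpression and from 1.21 to 1.31 with knockdown, against 1.39 to 1.43 in wild type, so wild type lay above both. The GAPDH ratios of the groups overlapped. Control transcripts added to the RNA were 1.98-fold brighter in replicates 2 and 3 than in replicate 1 of all groups. The part of these differences in the results below was not tested.

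Remodelling complexes use ATP to slide, evict or exchange nucleosomes and so set which DNA is accessible. SWI/SNF complexes mainly open chromatin, ISWI complexes space nucleosomes evenly, the CHD4-containing NuRD complex couples remodelling to histone deacetylation, and the INO80 family exchanges histone variants and takes part in DNA repair. Most of them pair 1 catalytic ATPase with interchangeable subunits, several of which carry bromodomains or other readers of modified histones.

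The remodeller transcripts differed little between the groups. With overexpression, 0 of 47 members passed the test against wild type (limma, adjusted p under 0.05; 2 had an unadjusted p under 0.05), where 0.476% of all 27307 tested probe sets passed (0.631% of genes by the same choice of probe set). With knockdown, 3 of 47 passed against wild type, which is 6.38% of the members, where 15.7% of all probe sets passed (19.4% of genes by the same choice of probe set). SMARCB1 rose, where 6.82% of all probe sets rose, and RUVBL1 and SMARCE1 fell, where 8.89% of all fell. Between knockdown and overexpression 0 of 47 passed (limma), against 14.5% of all probe sets, 5.75% higher and 8.76% lower (18.4% of genes). In these 3 comparisons, in the order given, 2, 9 and 7 members had an unadjusted p under 0.05 (limma). Of all 27307 probe sets 3351, 8370 and 7984 did, and of the 12036 genes 1680, 4173 and 4067.

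Differences were also small in size. The median log2 fold change of the members was 0.02 with overexpression and 0.07 with knockdown, both against wild type, and 0.08 between knockdown and overexpression. Over all tested probe sets these medians were 0.01, 0.01 and -0.01. The median size of a member's change, regardless of direction, was 0.09, 0.16 and 0.14, against 0.15, 0.24 and 0.23 over all probe sets. The 95% interval of the fold change lay within 1.5-fold in either direction for 40 members with overexpression, for 36 with knockdown against wild type and for 35 between the treated groups, and within 2-fold for 47, 45 and 45. MTA2 was the 1 member whose estimate exceeded 1.5-fold, with knockdown, and it did not pass the test, where 14.1% of all probe sets exceeded 1.5-fold.

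**Figure D1:**
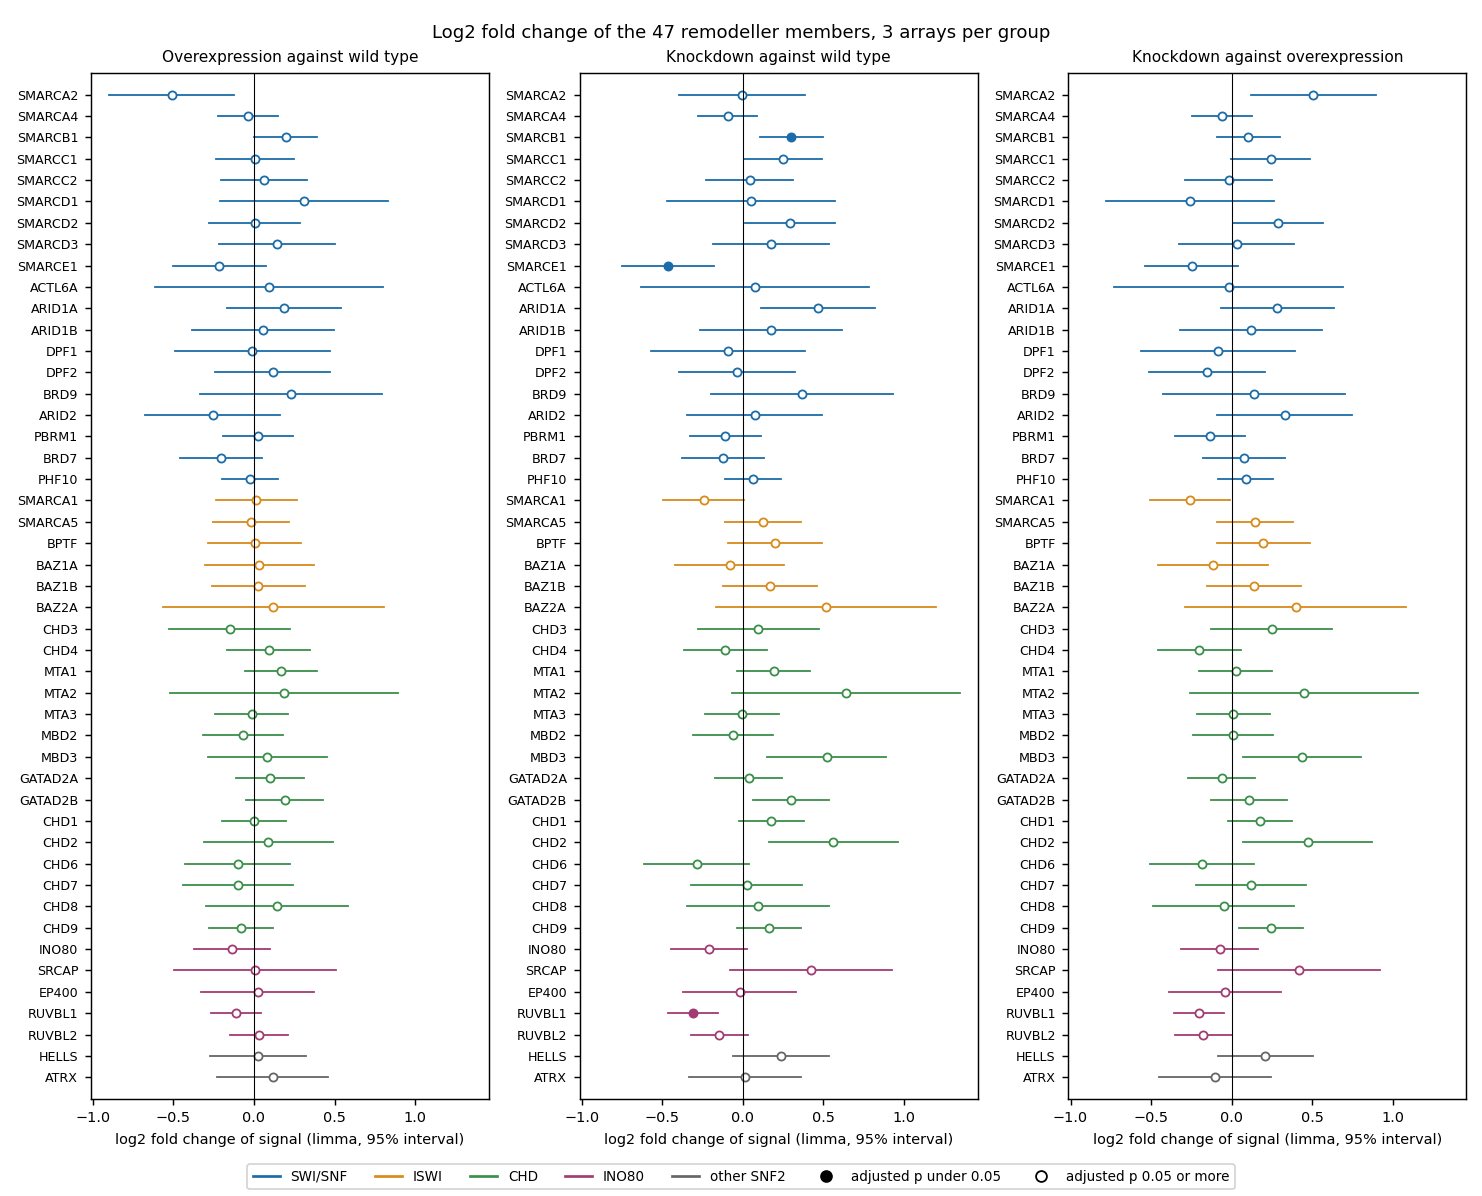
Log2 fold change of signal with its 95% limma interval (horizontal axis) for each of the 47 members (rows, coloured by family), 3 arrays per group. Filled points mark an adjusted p under 0.05: none with overexpression against wild type (left) or knockdown against overexpression (right), and SMARCB1, SMARCE1 and RUVBL1 with knockdown against wild type (middle).

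The knockdown counts depended on how the replicates were treated. Same-numbered arrays of the knockdown group and of each of the other groups deviated together, so the number was also fitted as a block. With the replicate block, 11 members passed between knockdown and wild type, 9 higher and 2 lower, where 28.0% of probe sets passed, 13.0% higher and 15.0% lower. The 9 were SMARCB1, SMARCD2, ARID1A, BPTF, BAZ2A, MTA2, MBD3, GATAD2B and CHD2, and the 2 were again SMARCE1 and RUVBL1. Between knockdown and overexpression 11 members passed with the block, SMARCA2, SMARCD2, ARID2, BPTF, MBD3, CHD2 and CHD9 higher and SMARCE1, CHD4, RUVBL1 and RUVBL2 lower, where 26.9% of probe sets passed, 12.1% higher and 14.7% lower. In both comparisons the 11 are 23.4% of the members. By the same choice of probe set, 33.4% of genes passed with the block against wild type and 32.6% against overexpression. By direction, 19.1% of members were higher and 4.26% lower against wild type, where 12.9% and 20.4% of genes were. Against overexpression 14.9% of members were higher and 8.51% lower, where 12.9% and 19.8% of genes were.

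Of the SWI/SNF genes, SMARCA4 (BRG1) and SMARCA2 (BRM) are the alternative ATPases. SMARCA4 had 11485, 11438 and 11253 signal units with overexpression, 12234, 9917 and 10800 with knockdown, and 11845, 11847 and 11375 in wild type. The groups overlapped, and the log2 changes against wild type were -0.04 (SE 0.08) with overexpression and -0.09 (SE 0.08) with knockdown, with limma adjusted p of 0.905 and 0.489. SMARCA2 had 927, 1157 and 1156 with overexpression, 1237, 1757 and 1639 with knockdown, and 1384, 1881 and 1382 in wild type. Its 3 overexpression arrays lay below all 6 others. The log2 change of SMARCA2 was -0.51 with overexpression against wild type (SE 0.18, adjusted p = 0.278) and 0.51 between knockdown and overexpression (adjusted p = 0.0803; 0.00952 with the replicate block), so neither passed without the block. All 4 tested probe sets of SMARCA2 had a negative estimate with overexpression, from -0.16 to -0.54.

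SMARCB1 (BAF47) is a core subunit that contacts the nucleosome and is lost in rhabdoid tumours. It had 6998, 6085 and 6991 with overexpression, 6823, 7282 and 7446 with knockdown, and 5627, 6171 and 5693 in wild type. Every knockdown array lay above every wild type array, and the overexpression arrays overlapped both groups. SMARCB1 rose by 0.30 log2 units with knockdown (SE 0.09, adjusted p = 0.0421 by limma), to a mean of 7184 ± 323 against 5830 ± 297 in wild type (SD, n = 3 each). Its call was lost whichever of the 6 arrays was left out (adjusted p 0.0532 to 0.131, highest without knockdown replicate 3) and also with centring of each array on its median, without the filter and without the trend. SMARCB1 has 1 tested probe set, and within replicates 2 and 3 the change was 0.31 (adjusted p = 0.0408).

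SMARCE1 (BAF57) is the subunit with a high mobility group domain that binds DNA. It had 8419, 11014 and 10236 with overexpression, 6947, 9256 and 8804 with knockdown, and 10406, 11466 and 12448 in wild type. All knockdown arrays were below those of wild type and overlapped the overexpression arrays, and replicate 1 was lowest in each group. SMARCE1 fell by 0.46 on the log2 scale in knockdown against wild type (SE 0.13, adjusted p = 0.0353 in limma). The call was lost in 4 of the 6 fits that each leave out 1 array, those without knockdown replicate 1, knockdown replicate 3, wild type replicate 2 or wild type replicate 3, where adjusted p reached 0.112, and also without the filter or without the trend. A second, less bright probe set of SMARCE1 also passed, at -0.37 (adjusted p = 0.0248), and its 2 further tested probe sets had estimates of -0.33 and -0.21 that did not pass. Within replicates 2 and 3 the change was -0.40 (adjusted p = 0.00747).

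In the fit without the replicate block, the other core subunits did not pass in any comparison. The scaffold subunit SMARCC1 had 11433, 15188 and 13671 with knockdown, against 10352, 11104 and 12306 in wild type, which overlap. Its log2 difference was 0.25 (limma adjusted p = 0.156), and all 4 of its probe sets gave between 0.25 and 0.38. SMARCC2, its paralogue, was at 0.04 in the same comparison. Of the 3 interchangeable SMARCD subunits, SMARCD2 had the largest difference, with 3926, 3730 and 3764 in knockdown, against 3094, 2941 and 3294 in wild type, a gap without overlap that did not pass (0.29, adjusted p = 0.149). SMARCD1 and SMARCD3 were at 0.05 and 0.17. ACTL6A, an actin-related subunit, was at 0.08, and its replicate 1 array was the lowest by a wide gap in every group, for instance 2711 against 5314 and 5626 in wild type.

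ARID1A and ARID1B carry the AT-rich interaction domain of the canonical BAF complex. ARID1A had 8281, 7394 and 9604 with knockdown, against 7308, 6060 and 5002 in wild type. The groups did not overlap, by a narrow gap, and the difference of 0.47 (SE 0.16) missed the threshold (limma adjusted p = 0.071; 0.0128 with the replicate block). ARID1B was at 0.18 in knockdown against wild type. DPF1 and DPF2, which read acylated histones, were at -0.09 and -0.04. BRD9, the bromodomain protein of the non-canonical complex, was at 0.37 with wide spread (adjusted p = 0.364). The 4 subunits that set PBAF apart, ARID2, PBRM1, BRD7 and PHF10, lay between -0.12 and 0.07 with knockdown and between -0.26 and 0.02 with overexpression, both against wild type, and none passed.

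**Figure D2:**
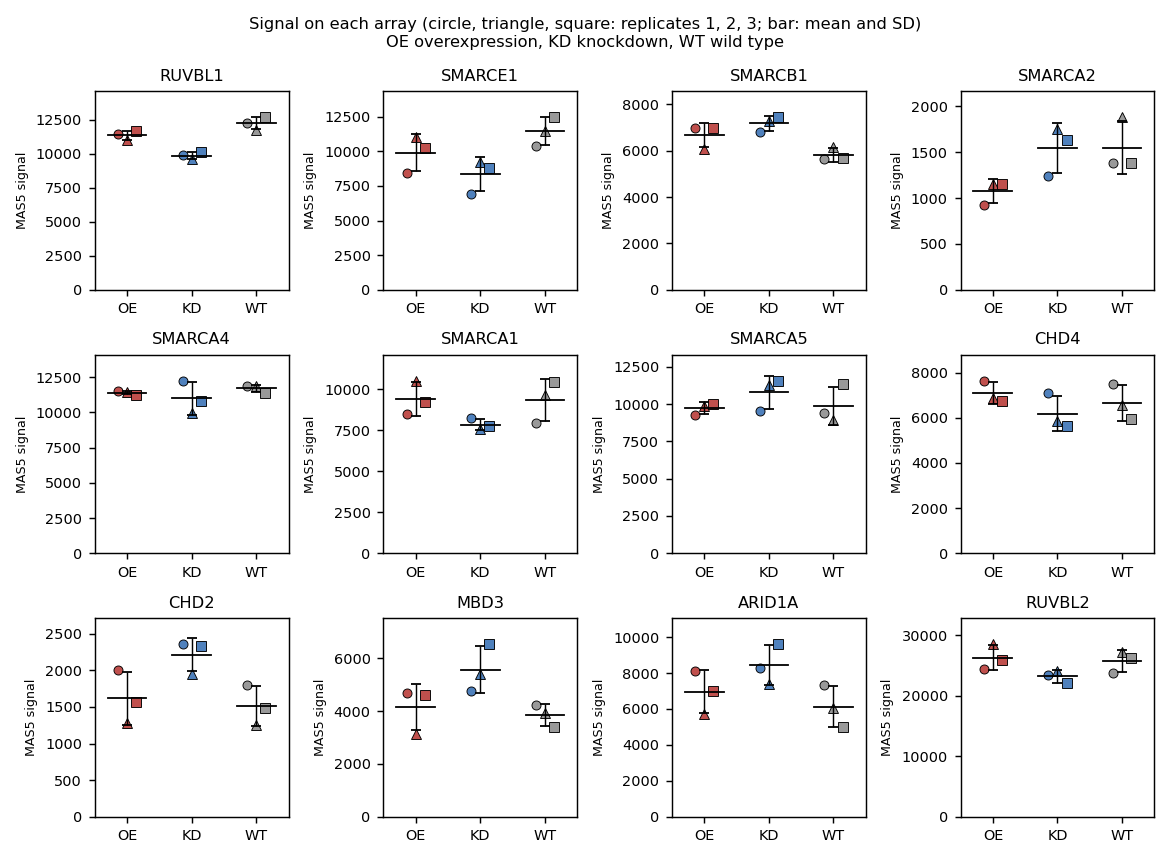
Signal (vertical axes, MAS5 units from 0) of 12 members on each array of the overexpression (OE), knockdown (KD) and wild type (WT) groups. Points are arrays, with a symbol for each replicate number, and bars are means with SD. The knockdown arrays of RUVBL1 and SMARCE1 lie below wild type, those of SMARCB1 above it, and the SMARCA4 arrays overlap in all groups.

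The ISWI ATPases SMARCA1 (SNF2L) and SMARCA5 (SNF2H) slide nucleosomes within several complexes. SMARCA1 had 8508, 10516 and 9225 with overexpression, 8221, 7550 and 7768 with knockdown, and 7926, 9666 and 10432 in wild type. Knockdown overlapped wild type and lay below overexpression, and the log2 differences of -0.24 from wild type and -0.26 from overexpression did not pass (limma adjusted p = 0.175 and 0.156). SMARCA5 had 9290, 9863 and 10021 with overexpression, 9504, 11277 and 11557 with knockdown, and 9418, 8916 and 11333 in wild type. All its groups overlapped, with differences of -0.02 with overexpression and 0.13 with knockdown against wild type. Of their partners, BPTF, the large subunit of NURF, was at 0.20 with knockdown (adjusted p = 0.335; 0.028 with the replicate block). BAZ1A of the ACF and CHRAC complexes and BAZ1B of the WICH complex were at -0.08 and 0.17. BAZ2A, which recruits SMARCA5 to silent ribosomal DNA, was at 0.52 with an interval from -0.17 to 1.20.

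CHD4 and CHD3 are alternative ATPases of NuRD. CHD4 had 7639, 6866 and 6748 with overexpression, 7095, 5849 and 5620 with knockdown, and 7510, 6566 and 5931 in wild type. CHD3 had 1381, 1325 and 1861 with overexpression, 1956, 1898 and 1542 with knockdown, and 1765, 1387 and 1910 in wild type. Groups overlapped for both genes, and in knockdown against wild type CHD4 was at -0.11 (SE 0.12) and CHD3 at 0.10 (SE 0.17), neither past the test.

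Of the 7 non-catalytic NuRD subunits among the members 0 passed in any comparison without the replicate block (limma). In knockdown against wild type 2 had an unadjusted p under 0.05, where 8370 of all 27307 probe sets did. With the block 3 of the 7 passed there, MBD3, MTA2 and GATAD2B. All 3 were higher, and they are 42.9%, where 28.0% of probe sets and 33.4% of genes passed. The 6 further CHD and NuRD genes tested outside the members went the other way. With the block 0 of them were higher and 3 lower, or 50%. MBD3, which links the deacetylase and remodelling modules of the complex, had 4681, 3137 and 4621 with overexpression, 4774, 5394 and 6536 with knockdown, and 4251, 3924 and 3418 in wild type. Its knockdown arrays lay above both other groups. The difference of 0.52 from wild type (SE 0.17) missed the threshold narrowly (limma adjusted p = 0.0578; 0.0177 with the replicate block), and of its other probe sets 1 passed at 0.41 and 1 stood at -0.23. MTA2, a scaffold for the deacetylases, had 472, 778 and 1102 with knockdown, against 370, 565 and 513 in wild type, which overlap, for a difference of 0.64 (SE 0.32, adjusted p = 0.206). Its paralogues MTA1 and MTA3 were at 0.19 and -0.00. MBD2, which binds methylated CpG, was at -0.06. GATAD2B, a bridge between MBD and CHD subunits, was at 0.30 (adjusted p = 0.0855) and GATAD2A at 0.04.

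CHD1 and CHD2 are ATPases with chromodomains that act at transcribed genes. CHD1 had 7723, 6434 and 6741 with overexpression, 8035, 8135 and 7416 with knockdown, and 6912, 6678 and 7270 in wild type. CHD2 had 2003, 1278 and 1568 with overexpression, 2357, 1950 and 2331 with knockdown, and 1801, 1248 and 1483 in wild type. For both genes the knockdown arrays lay above the wild type arrays, and neither passed, with 0.18 for CHD1 (limma adjusted p = 0.217) and 0.56 for CHD2 (SE 0.18, adjusted p = 0.0594). CHD2 passed with the replicate block (0.00238), with quantile normalization (0.0487) and in a fit of the 2 groups alone (0.0427), and its 4 other tested probe sets had estimates from 0.04 to 0.94 in knockdown against wild type. CHD9 had no overlap with wild type either, at 0.16, CHD6 was at -0.29 and CHD7, mutated in CHARGE syndrome, at 0.02. CHD8, whose mutation is tied to autism, was at 0.09, and none of these passed. A less bright CHD7 probe set stood at -0.28 in knockdown against wild type (limma adjusted p = 0.0936, or 0.0303 with the replicate block).

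In the INO80 family the ATPases did not pass the test. INO80 had 2157, 1792 and 1994 with overexpression, 1858, 1908 and 1863 with knockdown, and 2129, 2081 and 2308 in wild type. Its knockdown arrays lay below wild type by a difference of -0.21 (SE 0.11, limma adjusted p = 0.218). The other tested INO80 probe set stood at 0.06 in this comparison (SE 0.19). SRCAP, which deposits a histone H2A variant, had 521, 445 and 435 with overexpression, 576, 526 and 799 with knockdown, and 368, 448 and 608 in wild type. The SRCAP groups of knockdown and wild type overlapped, at 0.42 (SE 0.23, adjusted p = 0.239). The other tested SRCAP probe set stood at 0.95 (SE 0.31, limma adjusted p = 0.0581, or 0.0315 with the replicate block). EP400, the ATPase of the TIP60 acetyltransferase complex, had 1995, 2023 and 1734 with overexpression, 2198, 2019 and 1448 with knockdown, and 2037, 1947 and 1683 in wild type, and its groups overlapped at -0.02 for knockdown against wild type.

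RUVBL1 and RUVBL2 form the ring of AAA+ ATPases shared by the INO80, SRCAP and TIP60 complexes. RUVBL1 had 11436, 10991 and 11647 with overexpression, 9918, 9594 and 10108 with knockdown, and 12298, 11788 and 12689 in wild type. Knockdown lay below overexpression and overexpression below wild type, with no overlap between any groups. RUVBL1 fell by 0.31 on the log2 scale in knockdown against wild type (SE 0.07, adjusted p = 0.0141 in limma), to a mean of 9873 ± 260 against 12258 ± 452 (SD, n = 3 each). The call was lost without knockdown replicate 2 or without wild type replicate 3, where adjusted p reached 0.0621, and within replicates 2 and 3 the change was -0.31 (adjusted p = 0.0205). The overexpression difference from wild type, -0.11, did not pass (adjusted p = 0.572), nor did that between knockdown and overexpression, -0.20 (adjusted p = 0.0807; 0.0197 with the replicate block).

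RUVBL2 had 24428, 28504 and 25833 with overexpression, 23392, 24143 and 22067 with knockdown, and 23690, 27174 and 26221 in wild type. Its knockdown arrays lay below overexpression and overlapped wild type, and its difference of -0.15 from wild type did not pass (limma adjusted p = 0.251). HELLS, which aids DNA methylation of repeats, had 8830, 9489 and 9744 with knockdown, against 7274, 8003 and 8573 in wild type, without overlap and at 0.24 (adjusted p = 0.265). ATRX, which deposits a histone H3 variant at repeats, was at 0.01.

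Counted by arrays rather than by the model, 2 members had groups that did not overlap with overexpression against wild type, SMARCA2 and RUVBL1, both lower, where 17.6% of all probe sets did not overlap, 7.67% of all being lower. With knockdown against wild type there were 12, which is 25.5% of the members, where 35.2% of all probe sets did not overlap, 16.9% higher and 18.3% lower. Of these 9 were higher, SMARCB1, SMARCD2, ARID1A, MBD3, GATAD2B, CHD1, CHD2, CHD9 and HELLS, and 3 were lower, SMARCE1, INO80 and RUVBL1. Between knockdown and overexpression there were 7, or 14.9%, where 33.7% of all probe sets did not overlap, 14.9% higher and 18.7% lower. The number of arrays, 3 per group, limits the precision of all these values.

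Several families hold paralogues that replace each other in the complex, and 10 such pairs were compared by their log2 ratio on each array. The ratio of SMARCA4 to SMARCA2 was 0.48 log2 units higher with overexpression than in wild type, that of MBD3 to MBD2 was 0.58 higher with knockdown than in wild type, and that of SMARCA5 to SMARCA1 was 0.40 higher with knockdown than with overexpression. In these 3 the arrays of the groups did not overlap, in 1 pair of 10 for each comparison. If the group labels had no bearing, 1 pair in 10 would be expected not to overlap. These 3 pairs were named because they did not overlap. An exact permutation test of 3 against 3 arrays cannot give a p below 0.1, which each of them reached, so no pair could pass 0.05. The remaining pairs overlapped in every comparison.

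The brightest probe set is 1 of several for most members. The 47 members had 161 probe sets, of which 133 were tested, and 37 members had more than 1 tested. Of the 86 other tested probe sets, 61 had the sign of the chosen one in knockdown against wild type, 63 in overexpression against wild type and 64 in knockdown against overexpression. Without the replicate block 3 of the 86 passed in knockdown against wild type (3.49%, where 15.7% of all probe sets passed). They were those of SMARCE1 (lower) and of ARID2 and MBD3 (both higher). The ARID2 probe set had 362, 369 and 343 with knockdown, against 213, 186 and 258 in wild type, at 0.72 (limma adjusted p = 0.0485), while the brightest ARID2 probe set stood at 0.07. With the block further probe sets passed in this comparison, where 28.0% of all did. Examples were SMARCC1 at 0.31, 0.38 and 0.29 (limma adjusted p = 0.00686, 0.00628 and 0.0193) and PBRM1 at 0.59 (0.0496). Lower examples were BRD7 at -0.47 (0.0193) and PHF10 at -0.24 (0.0473). Between knockdown and overexpression 3 of the 86 passed without the block (3.49%, against 14.5% of all). A DPF1 and a GATAD2A probe set passed as lower, at -1.06 and -0.61, and an ARID1B probe set as higher, at 0.72, where the brightest ones stood at -0.08, -0.06 and 0.12. With overexpression 0 passed against wild type without the block. The smallest adjusted p there was that of a CHD7 probe set at -0.54 (limma adjusted p = 0.0594, or 0.00725 with the replicate block). The brightest CHD7 probe set stood at -0.10. Probe sets of a gene can read different transcript ends or forms. The names of 5 chosen ones, for ARID1A, DPF1, SMARCA5, GATAD2A and INO80, end in _x_at, a kind whose probes may match other transcripts. Chosen probe sets of other kinds, such as the _s_at ones of SMARCB1 and RUVBL1, were not checked for such matches.

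**Figure D3:**
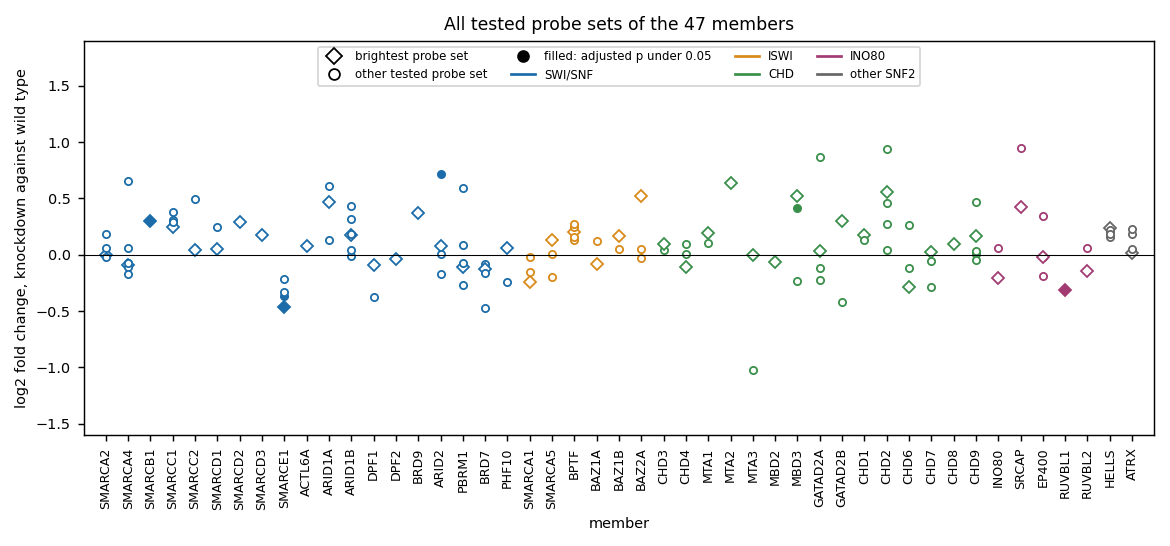
Log2 fold change of knockdown against wild type (vertical axis) for all 133 tested probe sets of the 47 members (horizontal axis, by family). Diamonds are the brightest probe set of a gene, circles the others, and filled symbols have an adjusted p under 0.05. The 4 SMARCE1 probe sets lie below 0 and the 4 SMARCC1 probe sets above it, while those of MBD3, ARID2 and GATAD2A lie on both sides.

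Averaging the tested probe sets of each gene in place of taking the brightest gave 7 members past the test in knockdown against wild type, with SMARCB1, SMARCC1, ARID1A, CHD2 and SRCAP higher and SMARCE1 and RUVBL1 lower, where 23.5% of genes passed. Between knockdown and overexpression it gave SMARCA2 higher and DPF1, GATAD2A and RUVBL1 lower, where 22.8% passed, and with overexpression against wild type 0 of 47, where 0.955% passed.

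The complexes have further subunits that are not among the 47. Of 60 such genes, 59 matched a probe set of a single symbol and 57 passed the filter, ACTL6B and CHD5 staying below it. With overexpression 0 of 57 passed against wild type (limma). An unadjusted p under 0.05 was found for 9 of them, where 3351 of all 27307 probe sets had one. With knockdown 6 passed against wild type, or 10.5%, below the 15.7% of all probe sets and 19.4% of genes that passed. Of these ING3 was higher and HMGXB4, NFRKB, UCHL5, SMARCAL1 and ZRANB3 were lower. Between knockdown and overexpression 11 passed, or 19.3%, near the 14.5% of all probe sets and 18.4% of genes, with POLE3 and INO80B higher, and HMGXB4, RBBP7, CDK2AP1, NFRKB, UCHL5, TFPT, DMAP1, ZNHIT1 and ZRANB3 lower. With the replicate block 19 passed against wild type (5 higher and 14 lower), or 33.3%, where 28.0% of probe sets and 33.4% of genes passed. Against overexpression 16 passed with the block (5 higher and 11 lower), or 28.1%, where 26.9% of probe sets and 32.6% of genes passed.

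UCHL5, a deubiquitinase found in INO80 and at the proteasome, had 11830, 12602 and 12108 with overexpression, 7988, 8069 and 7722 with knockdown, and 12736, 11308 and 10702 in wild type. Knockdown lay below both other groups. UCHL5 fell by 0.54 on the log2 scale in knockdown against wild type (SE 0.08, adjusted p = 0.002), fell by 0.62 against overexpression (adjusted p = 0.00104), and kept both calls with any 1 array left out. NFRKB, another INO80 subunit, had 1997, 1722 and 1783 with knockdown, against 2394, 2495 and 2532 in wild type (-0.43, adjusted p = 0.0168), and kept its call in 2 of 6 such fits. ZRANB3, a SNF2-type enzyme that remodels stalled replication forks, had 743, 798 and 880 with knockdown, against 1538, 1554 and 1472 in wild type (-0.92, SE 0.16, adjusted p = 0.00383). HMGXB4, a partner of NURF, had 7379, 6519 and 6328 with knockdown, against 8967, 9056 and 8633 in wild type (-0.40, adjusted p = 0.00857), and both it and ZRANB3 kept the call in all 6 fits. ING3, a TIP60 subunit, was at 0.39 (adjusted p = 0.0347) and SMARCAL1, an annealing helicase, at -0.39 (adjusted p = 0.0327), and these kept it in 2 and 1 of the 6.

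Of the subunits that passed between knockdown and overexpression, TFPT of INO80 was at -0.51 (limma adjusted p = 0.022), and DMAP1 and ZNHIT1, both of the SRCAP complex, at -0.48 (0.0349) and -0.45 (0.032). RBBP7 and CDK2AP1 of NuRD fell by 0.26 (0.0325) and 0.25 (0.0287). INO80B, with 1907 ± 48.0 in knockdown against 1220 ± 366 with overexpression (SD, n = 3 each), was higher by 0.69 (adjusted p = 0.0353), and POLE3, a histone-fold subunit of CHRAC, by 0.32 (adjusted p = 0.0374). Of the 25 further INO80 family subunits tested, 6 passed between knockdown and overexpression, 1 higher and 5 lower, with a median log2 change of -0.04. The 6 are 24.0%, where 14.5% of all probe sets passed (5.75% higher and 8.76% lower) and 18.4% of genes. In knockdown against wild type 3 of the 25 passed, 1 higher and 2 lower, with a median of -0.01. The 3 are 12.0%, where 15.7% of all probe sets and 19.4% of genes passed.

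**Figure D4:**
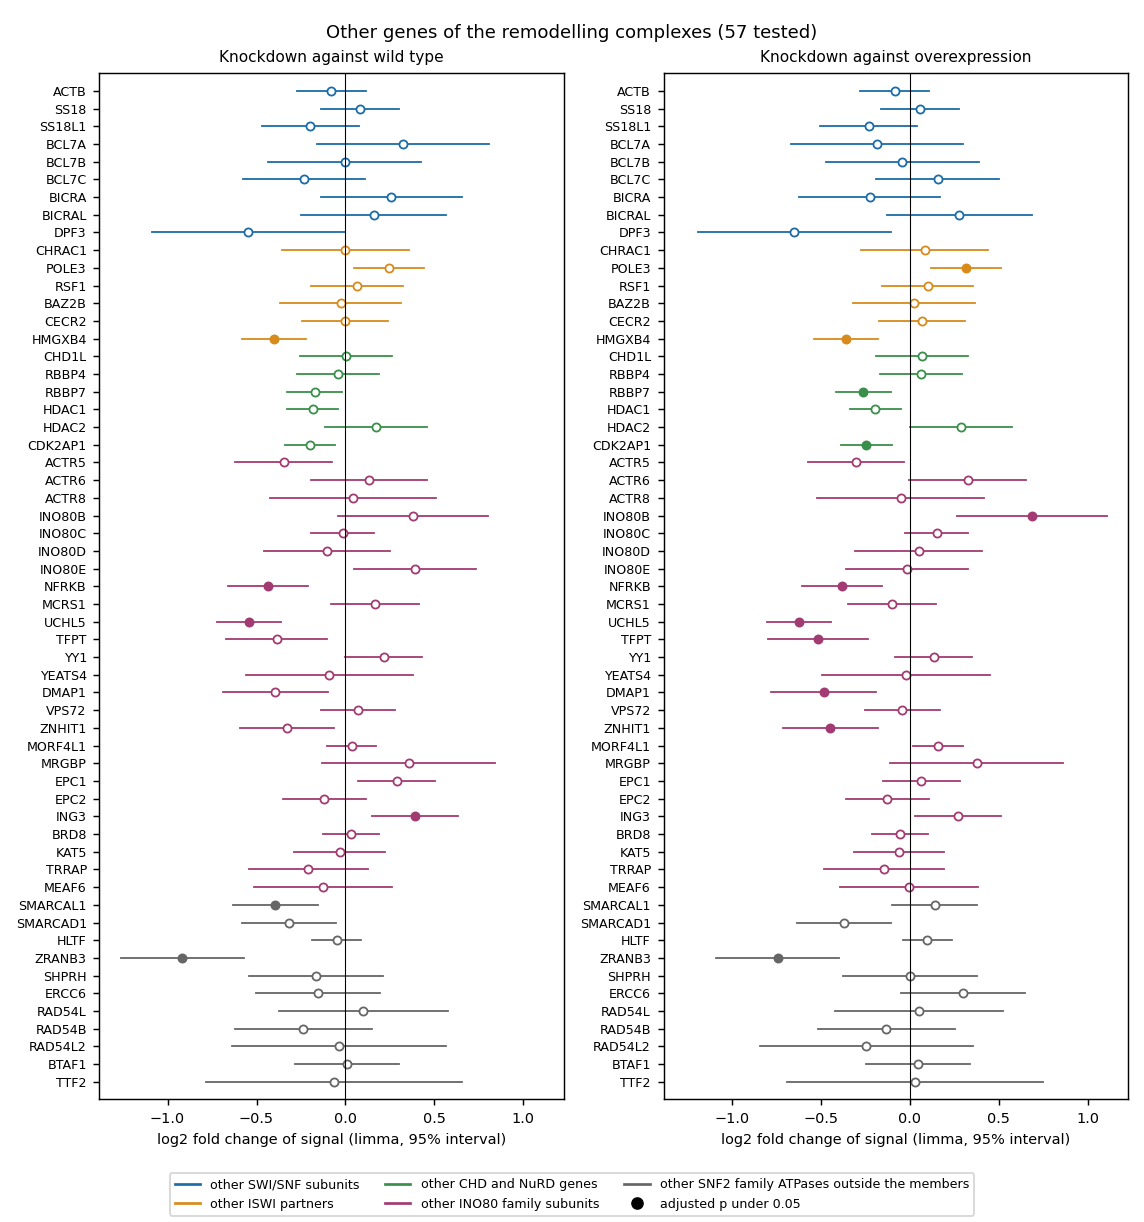
Log2 fold change of signal with its 95% limma interval (horizontal axis) for the 57 tested subunits and SNF2-type ATPases outside the 47 (rows, coloured by complex), in knockdown against wild type (left) and against overexpression (right). Filled points mark an adjusted p under 0.05, among them UCHL5, NFRKB, HMGXB4 and ZRANB3 on the left and right.

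The start regions of the 3 members that passed are shown because the transcripts of these genes are those that differed. RefSeq (GRCh38.p14) held a window of 300 bases, from 250 before to 50 after the gene start, for 38 of the 47 members. In the windows below, read 5′ to 3′ on the strand of the gene, capitals mark CpG. They lie at chr22:23786716-23787015 on the plus strand (SMARCB1), chr17:40647769-40648068 on the minus strand (SMARCE1) and chr3:128153865-128154164 on the minus strand (RUVBL1).
SMARCB1: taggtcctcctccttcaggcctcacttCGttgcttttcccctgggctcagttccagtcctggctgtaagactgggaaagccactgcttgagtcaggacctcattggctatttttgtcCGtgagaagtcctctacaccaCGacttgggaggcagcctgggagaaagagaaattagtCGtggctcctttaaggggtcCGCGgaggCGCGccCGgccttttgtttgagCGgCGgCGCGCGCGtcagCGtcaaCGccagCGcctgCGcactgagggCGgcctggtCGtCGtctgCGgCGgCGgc
SMARCE1: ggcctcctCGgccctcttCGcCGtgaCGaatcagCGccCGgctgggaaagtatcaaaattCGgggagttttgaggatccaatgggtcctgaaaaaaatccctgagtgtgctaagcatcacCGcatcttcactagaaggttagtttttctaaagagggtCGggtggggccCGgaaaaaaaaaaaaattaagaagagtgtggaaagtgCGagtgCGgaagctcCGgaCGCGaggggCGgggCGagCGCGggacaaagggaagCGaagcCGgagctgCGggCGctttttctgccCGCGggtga
RUVBL1: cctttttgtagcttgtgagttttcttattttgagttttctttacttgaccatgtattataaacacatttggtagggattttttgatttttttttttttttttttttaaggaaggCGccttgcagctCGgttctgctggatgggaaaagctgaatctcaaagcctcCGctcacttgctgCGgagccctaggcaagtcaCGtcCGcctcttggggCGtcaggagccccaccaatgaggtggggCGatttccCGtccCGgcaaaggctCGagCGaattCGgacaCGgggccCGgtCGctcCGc

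The SMARCB1 and SMARCE1 windows each held 25 CpG and the RUVBL1 window 17. The 38 members had a median GC content of 68.5% and a median of 30 CpG, against 65.7% and 27 in the 9889 windows of tested genes. The letters CCGGAAG, as read by ETS factors, occurred on either strand in 6 member windows (15.8%), against 19.2% of the windows of tested genes. None of the 3 windows printed holds them, and a match or its absence is a description of the letters alone.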

How the data were processed

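Total RNA of 9 HEK293 samples was labelled with biotin and hybridised to 9 arrays, per the labels. Each deposited value is an intensity on a linear scale that the authors obtained with MAS5, as named in the submitters' processing notes. No version or setting of it is given in the sources used here. Every array of the deposited table has a 2% trimmed mean near 1500.18, and a shift of total RNA in all cells would not show. Detection calls were not used here.

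Deposited intensity was turned into log2(signal + 1). Without 62 control probe sets, the 27307 of 54675 probe sets whose mean log2 signal reached the median of all (7.56, a signal of about 188) were tested with limma 3.58.1 in R 4.3.3 (lmFit, eBayes with a trend), in 1 two-sided fit over 9 arrays (6 residual degrees of freedom). P-values were adjusted over all of them by Benjamini-Hochberg, with a threshold of 0.05. A fold change of dim genes is understated by the added 1. Names came from the platform's annotation (41097 probe sets with 1 symbol, 1801 with several, 11777 with none; 0 symbols needed an update). Columns left unused numbered 0. The members, the further subunits and the rule for genes given per array (members past the threshold and the family ATPases) were chosen with earlier results of these data known; other members given per array, such as CHD2, MBD3, ARID1A and RUVBL2, were chosen after their values were seen. The fit was tested on simulated data.

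Same-numbered arrays were checked for pairing by correlating their deviations from the group means. These correlations were 0.362, 0.144 and 0.137 for knockdown with wild type, 0.352, 0.237 and 0.106 for knockdown with overexpression, all over the bound of 0.1 set for pairing, and 0.447, 0.160 and 0.083 for overexpression with wild type, where the third was under it. Other settings tried were an added 16, quantile normalization, median centring, no filter and one at the 60th percentile, only the 2 groups, no trend, a replicate block, a term for replicate 1, only replicates 2 and 3, the mean over a gene's probe sets, and each array left out. Figures were drawn with matplotlib 3.10.9.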

Additional observations from a re-analysis of the deposited data

How the results depend on the processing

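The counts of members moved with the setting, on backgrounds that moved as well. In overexpression against wild type 130 probe sets passed, 27 with only the 2 groups, 70 without a trend, 1022 with the replicate block, 1109 with a term for replicate 1, 220 with only replicates 2 and 3, and 25 to 97 with an array left out. Of the members 0 were called, except that SMARCA2 was lower with the replicate block (1 member, adjusted p = 0.0418, where 3.74% of probe sets passed) and with the replicate 1 term (1 member). KAT8 itself passed in that comparison with the replicate block (0.51, adjusted p = 0.0381). In knockdown against wild type 4289 probe sets passed, 7637 with the block, 7706 with the replicate 1 term and 5216 with only replicates 2 and 3. Quantile normalization gave 4377, median centring 4454, no filter 3208, only the 2 groups 3846 and no trend 3706. With an array left out 2213 to 3653 passed. The 1 higher member became 2 with quantile normalization, 0 with median centring, 0 without a filter, 3 with only the 2 groups, 0 without a trend, 9 with the block, 9 with the replicate 1 term, 7 with only replicates 2 and 3, 5 with gene means, and 0 to 2 with an array left out. The 2 lower members became 1 without a filter, 1 without a trend, 3 with only replicates 2 and 3 (SMARCA1 as well, adjusted p = 0.0124), and 0 to 3 with an array left out. Without a filter and without a trend RUVBL1 kept its call and SMARCE1 lost it. In knockdown against overexpression 3963 probe sets passed, 7334 with the block, 7425 with the replicate 1 term and 4909 with only replicates 2 and 3. With an array left out 2040 to 3289 passed. Its 0 higher members became 7 with the block, 6 with the replicate 1 term, 4 with only replicates 2 and 3, 1 with gene means, and 0 to 1 with an array left out, and its 0 lower members became 4, 4, 1 and 3 under the first 4 of these. The cause of these moves was not tested. Median centring moved the median of all probe sets to -0.10 from 0.01 in overexpression and to -0.07 from 0.01 in knockdown, both against wild type, and the share of calls that are higher to 30.1% from 66.9% and to 25.3% from 43.4%; the members' medians under it were -0.08 and -0.01. No called member changed sign under any setting run. With 3 arrays per group, precision limits what could be called.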
